A study of Saccharomyces cerevisiae with 8 samples.

Results

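Budding yeast, Saccharomyces cerevisiae, carries several routes that cut damaged or mispaired bases out of DNA, and 36 genes of these routes were followed across a DNA-damage experiment. The genes were chosen by name from nucleotide excision repair (17 genes), base excision repair (8 genes), direct reversal of damage (2 genes) and the mismatch repair family with its meiotic members (9 genes). Each of the 36 was measured by 1 probe set that the platform annotation assigns to that gene alone, out of 5580 genes named in this way and 7641 features tested in all. Log-phase yeast gave total RNA for 8 one-colour arrays, in 4 groups of 2. Wild-type and sgs1 null cells were compared, either untreated or grown with methyl methanesulfonate (MMS), an agent that attaches methyl groups to DNA bases. The sources used here do not give the strain backgrounds, the null allele or the dose and duration of MMS. SGS1 encodes a RecQ-family helicase of recombination and replication-fork repair, so each comparison by strain asks how the repair genes stood without it. In each group 1 array is labelled rep and is called the second here. No label says that the members of a pair were separate cultures, so the p-values rest on a spread that may be technical only. RNA was measured in bulk, so fewer cells expressing a gene and less RNA per cell cannot be told apart.

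In nucleotide excision repair a bulky lesion is recognised, the general transcription factor TFIIH unwinds the DNA around it, and nucleases cut the damaged strand on either side. In base excision repair a glycosylase removes a single damaged base, an endonuclease opens the backbone at the base-free site, and the gap is filled. Mismatch repair corrects copying errors: homologs of the bacterial MutS protein bind the mispair, MutL homologs recruit the later steps, and an exonuclease removes the new strand. MMS lesions of bases are mainly a matter for base excision repair, and direct removal of the methyl group deals with a smaller part. Several genes of the other routes are known from textbooks to be transcribed more after DNA damage.

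The intensities deposited by the authors had array means between 1906 and 2000 and array medians between 775 and 971.6. They were quantile normalized, every value below the 10th percentile, an intensity of 97.1, was raised to that floor, and log2 values were fitted with limma over all features. Values given for single arrays are normalized intensities before the floor, first array and then the array marked rep. Changes are log2 values ± standard error, and adjusted p-values are limma's, by the Benjamini-Hochberg method over 7641 features, with a threshold of 0.05. Of the 288 values of the 36 genes, 1 lay below the floor, that of MSH5 on the first array of wild type with MMS. In the sgs1 null strain the deposited SGS1 intensity was between 1.7 and 17.7 on the 4 arrays, against 339.1 to 777.3 in wild type, so all arrays lay on the side of their strain label.

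Averaged over the strains, MMS changed 12 of the 36 repair genes. The genes that rose numbered 9: SSL2 and TFB3 of TFIIH, RAD4 and RAD7 of damage recognition, the nuclease gene RAD2, the glycosylase genes MAG1 and OGG1, and the mismatch repair genes MSH6 and PMS1. Those that fell numbered 3: RAD10, partner of a repair nuclease, PHR1, which encodes the photolyase, and MSH5, a meiotic MutS homolog. The other 24 did not pass, and 17 of the 36 had an unadjusted p under 0.05, beside 31.7% of all features. The 12 calls are 33.3% of the repair genes, beside 15.6% of all features called in this comparison, 8.78% called higher and 6.78% called lower. The median size of the change, whatever its sign, was 0.51 for the 36 genes and 0.33 for all features, and the signed medians were 0.15 and 0.0032. All features include some below the floor on every array, whose changes are 0, while almost no value of the 36 genes was below it. The sets are unlike in this respect, also for the shares called. On 15 of the genes the 4 arrays with MMS did not overlap the 4 untreated ones, 11 higher and 4 lower, where 12.2% and 9.96% of all features behaved so.

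**Figure D1:**
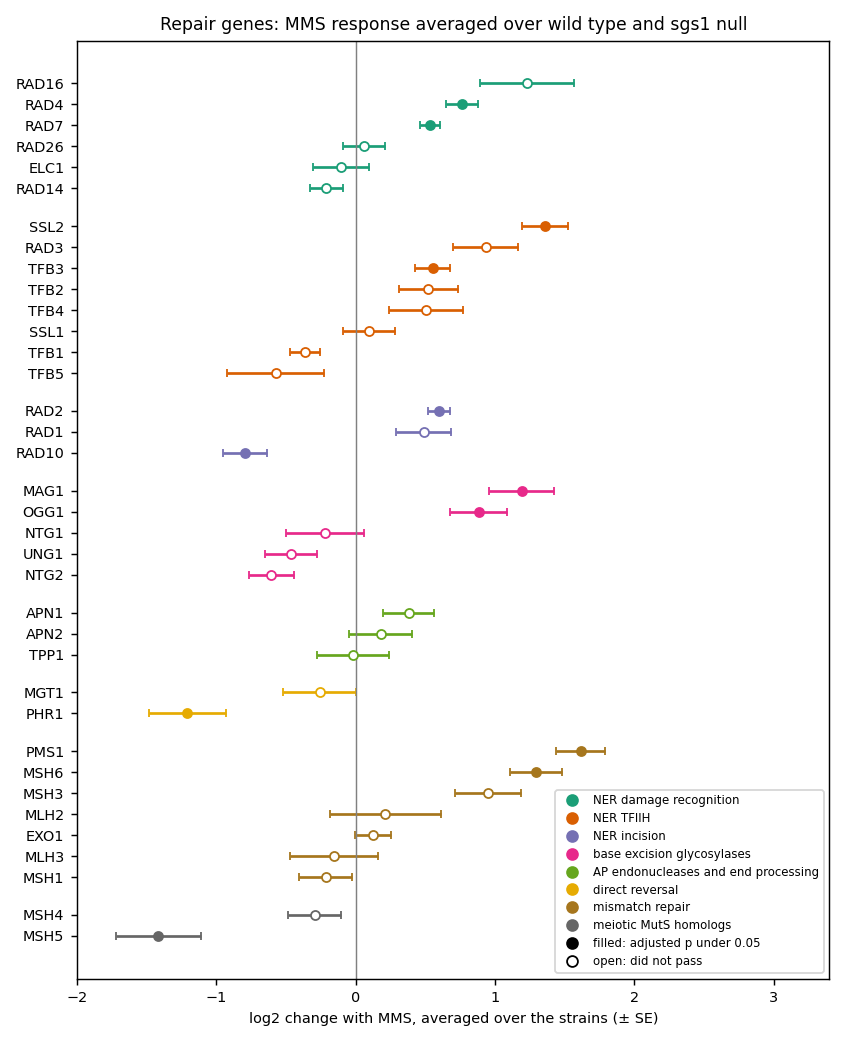
Log2 change with MMS averaged over wild type and sgs1 null (horizontal axis, ± standard error) for each of the 36 repair genes, grouped by sub-pathway and coloured by it; filled points passed the adjusted threshold of 0.05. The 9 filled points on the right run from RAD7 (0.53) to PMS1 (1.62) and the 3 on the left from RAD10 (-0.79) to MSH5 (-1.42).

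Leaving out 1 array left its group with a single array, assumed to vary like the other groups, and cost 1 of the 4 residual degrees of freedom. In these fits the number of repair genes called was 6 or 5 when an array of untreated wild type (first or second) was dropped, 5 or 3 for wild type with MMS, 5 for either untreated sgs1 null array, and 5 or 7 for sgs1 null with MMS. PMS1 was called in all 8 of these fits, SSL2, RAD7 and RAD2 in 7 each, MSH6 in 5 and RAD4 in 3. MAG1, OGG1, RAD10 and PHR1 were each called in 1, and TFB3 and MSH5 in 0. All 12 kept their direction in the 8 fits, in which most arrays are shared. Over these and the 8 other settings the change of RAD4 was 0.67 to 0.86, that of MAG1 0.98 to 1.41 and that of TFB3 0.45 to 0.67. It was -0.93 to -0.65 for RAD10, 0.70 to 1.06 for OGG1 and -1.43 to -0.95 for PHR1. For MSH5, in the settings that tested it, it was -1.65 to -0.58. Why calls were lost was not tested. Compared only between arrays of the same mark, all 12 moved in their direction in both strains on the first arrays and on the arrays marked rep. This could not turn out otherwise, since for each of the 12 the 4 MMS arrays did not overlap the 4 untreated ones. It is therefore no separate check of the calls. The sizes differed by mark for some genes: -1.68 on the first arrays and -0.74 on the others for PHR1, 1.53 and 0.85 for MAG1, -1.08 and -0.51 for RAD10, and 0.52 and 1.25 for OGG1. The part that the mark plays in these sizes was not tested.

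**Figure D2:**
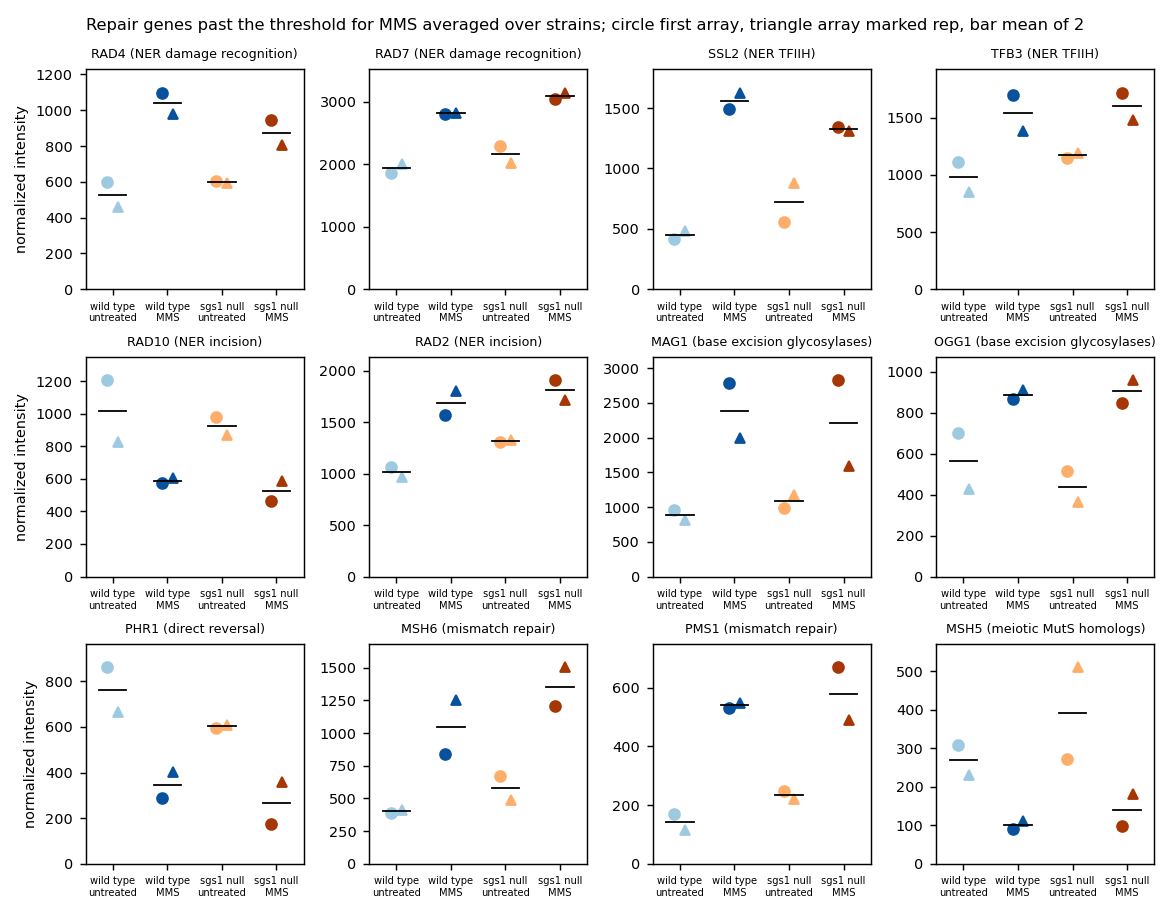
Normalized intensity (vertical axis, linear and from 0) of the 12 repair genes that passed the threshold for MMS averaged over strains, in the 4 groups; circles are first arrays, triangles arrays marked rep, and bars the mean of the 2. In each panel all 4 MMS arrays lie on the same side of all 4 untreated arrays.

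Damage recognition in nucleotide excision repair was represented by 6 genes, of which 2 rose and 4 did not pass. RAD4 (YER162C) encodes the lesion-binding protein of the pathway, homolog of human XPC. RAD4 gave 599 and 459 in untreated wild type, 1097 and 980.1 in wild type with MMS, 603 and 593 in untreated sgs1 null and 947 and 803 in sgs1 null with MMS. All arrays with MMS were above all untreated arrays, and the rise averaged 0.76 ± 0.12 (adjusted p = 0.0188). RAD7 (YJR052W) and RAD16 (YBR114W) form the complex that serves lesions in untranscribed DNA. RAD7 gave 1861 and 2009.7 in untreated wild type, 2812 and 2823 in wild type with MMS, 2302 and 2016 in untreated sgs1 null and 3047 and 3145 in sgs1 null with MMS. Its rise of 0.53 ± 0.068, or 1.45-fold (adjusted p = 0.0127), was small, and its arrays within a group lay close together. RAD7 lost its call with low values left below the floor (adjusted p = 0.0692), which changed neither its values nor its change.

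RAD16 had the largest change of these 6 genes and a wide spread within groups. RAD16 gave 132 and 262 in untreated wild type, 553 and 645 in wild type with MMS, 236 and 421 in untreated sgs1 null and 424 and 692 in sgs1 null with MMS. The MMS arrays lay above the untreated ones, with the second untreated sgs1 null array just under the lowest MMS array, and the change of 1.23 ± 0.34 did not pass (adjusted p = 0.0726). RAD16 was called with low values left below the floor, with the dimmest 25% of features left out and with the rep mark as a block. ELC1, the elongin C homolog in the same complex, had a change of -0.11 ± 0.20. The zinc-finger damage-binding gene RAD14 (-0.21 ± 0.12) and RAD26 (0.06 ± 0.15), the translocase of transcription-coupled repair, did not pass either. Thus the partners RAD7, RAD16 and ELC1 had changes of 0.53, 1.23 and -0.11, of which only the first passed, and the differences between genes were not tested.

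TFIIH, the complex of transcription and repair that opens the DNA, was represented by 8 genes, of which 2 rose and 6 did not pass. SSL2 (YIL143C) encodes its DNA translocase, homolog of human XPB. SSL2 gave 418 and 482 in untreated wild type, 1495 and 1626 in wild type with MMS, 558 and 878 in untreated sgs1 null and 1341 and 1309.9 in sgs1 null with MMS. The 4 MMS arrays stood well above the 4 untreated ones, of which the wild-type pair was the lower. The rise averaged 1.36 ± 0.16, or 2.56-fold (adjusted p = 0.0109). SSL2 lost its call only without the second array of wild type with MMS, where the change was 1.32 (adjusted p = 0.0508).

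The other helicase gene of TFIIH, RAD3 (YER171W), homolog of human XPD, also had no overlap between MMS and untreated arrays. RAD3 gave 373 and 283 in untreated wild type, 630.2 and 639.6 in wild type with MMS, 332 and 232 in untreated sgs1 null and 395 and 676 in sgs1 null with MMS. The lowest MMS array, the first of sgs1 null, was only slightly above the highest untreated array, and the change of 0.93 ± 0.23 did not pass (adjusted p = 0.058). RAD3 was called with median centring, with low values left below the floor and with the dimmest 25% of features left out. TFB3 (YDR460W) encodes the subunit that ties the kinase module to the core complex. TFB3 gave 1114 and 854 in untreated wild type, 1699 and 1388 in wild type with MMS, 1146 and 1195 in untreated sgs1 null and 1718 and 1483 in sgs1 null with MMS. Its MMS arrays were higher in both strains, and its rise of 0.55 ± 0.13 passed narrowly (adjusted p = 0.0488). With 5 of the 8 other settings of the analysis the adjusted p of TFB3 was above 0.05, at most 0.091 among them.

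The remaining TFIIH genes encode core subunits and had values on both sides of 0. TFB2 (0.52 ± 0.21) and TFB4 (0.50 ± 0.27) lay above it, SSL1 (0.095 ± 0.19) near it, and TFB1 (-0.37 ± 0.11) and the small subunit gene TFB5 (-0.57 ± 0.35) below it. None of these 5 passed the threshold. The median of the 8 TFIIH changes was 0.51, and their range was -0.57 to 1.36.

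The incision step had 3 genes, 1 that rose, 1 that fell and 1 that did not pass. RAD2 (YGR258C) encodes the nuclease that cuts on the far side of the lesion, homolog of human XPG, and is a textbook damage-inducible gene. RAD2 gave 1062 and 965 in untreated wild type, 1572 and 1803 in wild type with MMS, 1306 and 1324 in untreated sgs1 null and 1906 and 1715 in sgs1 null with MMS. The arrays of each group were close together and those with MMS were higher, by 0.60 ± 0.079 or 1.51-fold (adjusted p = 0.0136). RAD2 lost its call with low values left below the floor (adjusted p = 0.0527). RAD1 (YPL022W) and RAD10 (YML095C) encode the subunits of the other nuclease, homologs of human XPF and ERCC1. RAD10 gave 1206 and 825 in untreated wild type, 573 and 604 in wild type with MMS, 981 and 867 in untreated sgs1 null and 462 and 586 in sgs1 null with MMS. All MMS arrays were lower than all untreated ones, and RAD10 fell by 0.79 ± 0.16, being 1.73-fold lower (adjusted p = 0.0342). On the deposited scale, without further normalization, RAD10 did not pass (-0.71, adjusted p = 0.0801). RAD1 gave 385 and 288 in untreated wild type, 606 and 561 in wild type with MMS, 426 and 505 in untreated sgs1 null and 663 and 410.1 in sgs1 null with MMS. In wild type its MMS arrays were higher, in sgs1 null the groups overlapped, and the averaged change of 0.49 ± 0.20 did not pass (adjusted p = 0.169). The difference between the changes of the 2 partners was not tested.

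Base excision repair had 8 genes, of which 2 rose and 6 did not pass. MAG1 (YER142C) encodes the glycosylase that removes methylated adenine, a main product of MMS. MAG1 gave 957 and 816 in untreated wild type, 2783 and 1989.9 in wild type with MMS, 991 and 1181 in untreated sgs1 null and 2828 and 1585 in sgs1 null with MMS. All MMS arrays were above all untreated ones, and in both strains the first array with MMS was clearly the higher of its pair. The rise averaged 1.19 ± 0.23, or 2.28-fold (adjusted p = 0.0333), and MAG1 was called under all 8 other settings that kept every array. Without an array it was called only when the second array of sgs1 null with MMS was left out. In the RefSeq gene table of assembly R64, MAG1 is next to DDI1 (YER143W), which encodes a ubiquitin-related protease and is known to share a promoter region with it. DDI1 gave 1554 and 1854 in untreated wild type, 6295 and 7827 in wild type with MMS, 1303 and 1485 in untreated sgs1 null and 5304 and 7059.7 in sgs1 null with MMS, and it rose by 2.09 ± 0.14 (adjusted p = 0.00421).

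OGG1 (YML060W) encodes the glycosylase for oxidised guanine. OGG1 gave 701 and 428 in untreated wild type, 865 and 911 in wild type with MMS, 513 and 362 in untreated sgs1 null and 849 and 958 in sgs1 null with MMS. The MMS arrays were all above the untreated ones, the nearest being the first untreated wild-type array, and the rise of 0.88 ± 0.20 had an adjusted p of 0.0498, just under the threshold. It was above 0.05 under 4 of the 8 other settings, the deposited scale among them (0.052). The other glycosylase genes had values below 0. NTG2, for oxidised pyrimidines, gave 2599 and 3394 in untreated wild type, 1915 and 2164 in wild type with MMS, 2970.2 and 2793 in untreated sgs1 null and 1506 and 2189.7 in sgs1 null with MMS, with every MMS array under every untreated one, and its change of -0.61 ± 0.16 did not pass (adjusted p = 0.0689). The related NTG1 had -0.22 ± 0.28 and the uracil glycosylase gene UNG1 -0.46 ± 0.18, and neither passed.

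The genes that act after the glycosylases did not pass. APN1 (YKL114C) encodes the main endonuclease for base-free sites. APN1 gave 2723 and 1888 in untreated wild type, 2777 and 2499 in wild type with MMS, 1965 and 1465 in untreated sgs1 null and 2792 and 2186 in sgs1 null with MMS. Its groups overlapped in wild type, and the averaged change was 0.38 ± 0.18 (adjusted p = 0.23). APN2, the second such endonuclease, had 0.18 ± 0.23, and TPP1, which cleans the ends of broken strands, -0.022 ± 0.26.

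The enzymes that reverse damage without cutting had values below 0. PHR1 (YOR386W) encodes the photolyase, which splits ultraviolet-light dimers and is known as a damage-inducible gene. PHR1 gave 860.1 and 665 in untreated wild type, 287 and 404 in wild type with MMS, 597 and 607 in untreated sgs1 null and 174 and 359.8 in sgs1 null with MMS. All 4 arrays with MMS were lower than all 4 untreated arrays, the lowest being the first of sgs1 null with MMS. PHR1 fell by 1.21 ± 0.28, which is 2.31-fold lower (adjusted p = 0.0476). It was above the threshold by small margins on the deposited scale (adjusted p = 0.0516), with an intensity trend in the spread (0.0517) and with each probe set tested on its own (0.0503). RPH1 and GIS1, known repressors of PHR1, had changes of -0.23 ± 0.11 and -0.41 ± 0.37 and did not pass. GIS1 gave 1219 on the second untreated sgs1 null array and 358 to 478 on the others, so its change rests largely on that array. MGT1 (YDL200C) encodes the methyltransferase that takes the methyl group off guanine. MGT1 gave 3017 and 1967 in untreated wild type, 2645 and 1821 in wild type with MMS, 3000.1 and 1813 in untreated sgs1 null and 2053 and 1599 in sgs1 null with MMS. The first array was the higher of the pair in every group, the groups overlapped, and the change of -0.26 ± 0.26 did not pass (adjusted p = 0.573).

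Mismatch repair had 7 genes, of which 2 rose and 5 did not pass. PMS1 (YNL082W) encodes a MutL homolog with nuclease activity, corresponding to human PMS2. PMS1 gave 171 and 115 in untreated wild type, 531 and 549 in wild type with MMS, 249 and 219.7 in untreated sgs1 null and 669 and 488 in sgs1 null with MMS. The lowest MMS array was far above the highest untreated one, and untreated wild type was lower than untreated sgs1 null. The rise of 1.62 ± 0.18, or 3.06-fold (adjusted p = 0.00908), was the largest among the 36 genes. MSH6 (YDR097C) encodes the MutS homolog that recognises base mispairs. MSH6 gave 386 and 415 in untreated wild type, 841 and 1253 in wild type with MMS, 671 and 489 in untreated sgs1 null and 1205 and 1502 in sgs1 null with MMS. All MMS arrays were above all untreated ones, and the rise averaged 1.30 ± 0.19, or 2.46-fold (adjusted p = 0.0166).

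MSH3 (YCR092C) encodes the MutS homolog for larger loops. MSH3 gave 164 and 104 in untreated wild type, 357 and 259 in wild type with MMS, 196 and 272 in untreated sgs1 null and 437 and 313 in sgs1 null with MMS. Its groups were apart within each strain but the second untreated sgs1 null array overlapped the second array of wild type with MMS, and the change of 0.95 ± 0.24 did not pass (adjusted p = 0.0606). MSH3 was called with low values left below the floor. The accessory MutL homolog MLH2 (YLR035C) gave 212 and 350.3 in untreated wild type, 177 and 351 in wild type with MMS, 205 and 135 in untreated sgs1 null and 165 and 359 in sgs1 null with MMS. The arrays marked rep were higher in 3 of the 4 groups, the spread within groups was wide, and the change was 0.21 ± 0.40. MLH3 (-0.15 ± 0.32), the exonuclease gene EXO1 (0.12 ± 0.13) and MSH1 (-0.22 ± 0.19), which acts in mitochondria, did not pass.

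The MutS homologs MSH4 and MSH5 act together in meiotic crossing-over. MSH5 (YDL154W) gave 307 and 229 in untreated wild type, 89.2 and 109.8 in wild type with MMS, 271 and 509 in untreated sgs1 null and 98.3 and 182 in sgs1 null with MMS. The MMS arrays were lower than the untreated ones, with both arrays of wild type and the first of sgs1 null near or under the floor of 97.1, and the second untreated sgs1 null array was the highest of all. MSH5 fell by 1.42 ± 0.31 (adjusted p = 0.0417), and with the floor at the 20th percentile the value was -0.58 and did not pass (adjusted p = 0.194). MSH4 gave 384 and 241 in untreated wild type, 319 and 272 in wild type with MMS, 281 and 379 in untreated sgs1 null and 229 and 218 in sgs1 null with MMS, and its change of -0.30 ± 0.19 did not pass.

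**Figure D3:**
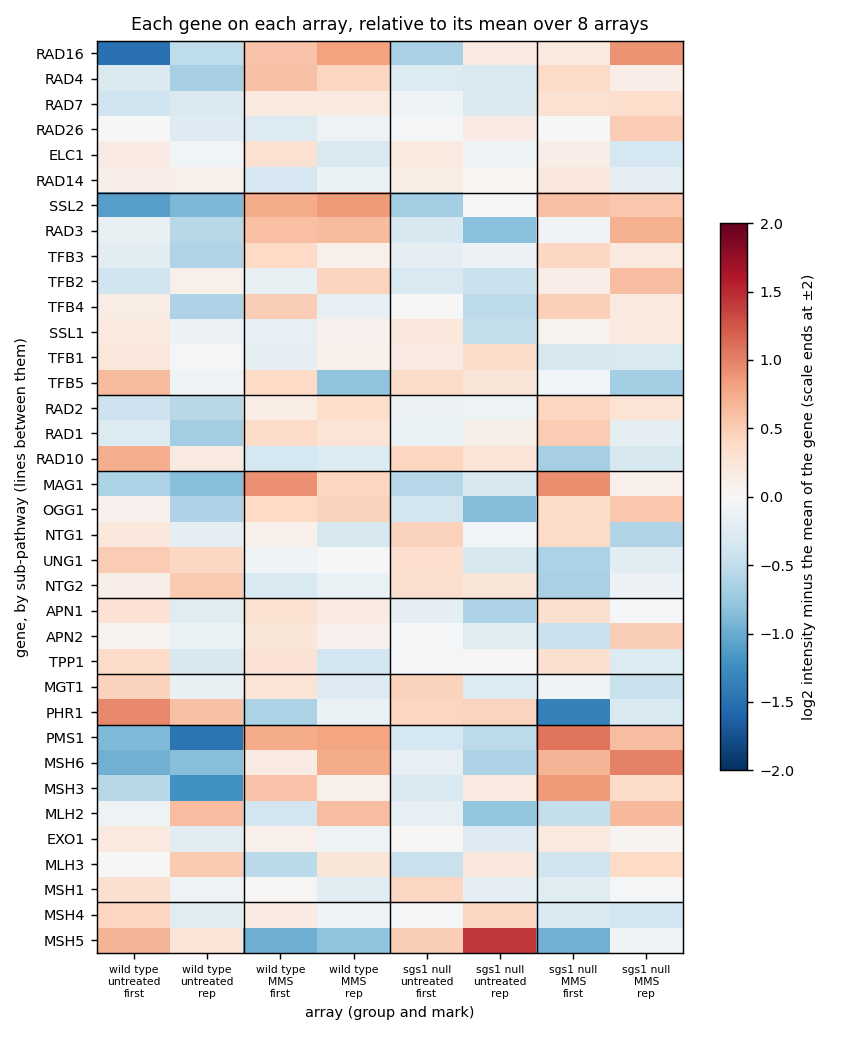
Log2 intensity of each repair gene on each of the 8 arrays, minus its own mean over the 8 arrays (colour, red above and blue below the mean), with genes in rows by sub-pathway and arrays in columns by group and mark. PMS1, SSL2, MSH6 and MAG1 are blue or near white on the untreated arrays and red or pale red with MMS, and PHR1 and RAD10 show the reverse.

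In wild type alone, 5 of the 36 genes were called with MMS, all higher, beside 6.35% of all features called and 3.42% called higher. Over all features the split was 261 higher and 224 lower, and 237 and 309 with median centring in place of quantile normalization. Unadjusted p was under 0.05 for 15 repair genes and 24.6% of features. PMS1 rose by 1.94 ± 0.25 (adjusted p = 0.0247), from 143 ± 39.9 (SD, n = 2) to 539.8 ± 12.8 (SD, n = 2). Over the other settings and the fits without 1 array this rise was 1.36 to 2.26. SSL2 rose by 1.80 ± 0.23 (adjusted p = 0.0247), from 450.0 ± 45.2 (SD, n = 2) to 1561 ± 92.5 (SD, n = 2). The other 3 were RAD4 (0.98 ± 0.17), RAD2 (0.73 ± 0.11) and RAD7 (0.54 ± 0.097), and their calls depended on the settings. Under the 8 settings that kept all arrays, RAD4 was called in 5, RAD2 in 6 and RAD7 in 3, while SSL2 was called in all 8 and PMS1 in all 7 that tested it. MSH6 (1.36 ± 0.26, adjusted p = 0.0524), RAD16 (1.68 ± 0.48, adjusted p = 0.111), MSH3 (1.22 ± 0.34) and MAG1 did not pass, nor did PHR1 (-1.15 ± 0.39) and MSH5 (-1.36 ± 0.43). For MSH5 the first array with MMS was below the floor and was raised to it, so this size depends on the floor. The count of 5 was 1 without any one of the sgs1 null arrays and 0 without any one of the wild-type arrays. It was 2, SSL2 and PMS1, with low values left below the floor, and 3, with RAD2 added, with an intensity trend in the spread. With the dimmest 25% of features left out it was 4, of which only SSL2 was shared with the 5, the others being RAD16, MAG1 and MSH6. MSH6 took the place of RAD7 with median centring, and MAG1 did on the deposited scale.

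In sgs1 null alone, limma called 0 of the 36 genes, beside 2.51% of all features. An unadjusted p under 0.05 was reached by 14, of which 9 were higher and 5 lower, beside 20.2% of all features. The MMS and untreated arrays did not overlap for 16 genes that were higher and 7 that were lower with MMS, beside 23.6% and 20.9% of all features. The largest values were those of PMS1 (1.29 ± 0.25, adjusted p = 0.0717), MSH6 (1.23 ± 0.26, adjusted p = 0.0863), OGG1 (1.07 ± 0.29) and MAG1 (0.97 ± 0.33) above 0 and of PHR1 (-1.27 ± 0.39) and RAD10 (-0.83 ± 0.22) below it. MSH5 had -1.47 ± 0.43. Its sgs1 null arrays were all above the floor, so the floor used did not set this size. The first array with MMS, at 98.3, lay just above the floor, and a higher floor would raise that value. With the floor at the 20th percentile 1 gene, PMS1, was called.

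The MMS responses in the 2 strains, which share no arrays, had the same sign for 31 of the 36 genes and for 5630 of the 7641 features. The count over all features takes a change of 0 in both strains as the same sign, so it is not a count of features that moved alike. Across the 36 genes Pearson's r between the responses was 0.88, and across all features 0.73. All features include some below the floor on every array, so the 2 sets are unlike here too. Genes are not independent replicates, and all arrays were normalized together, so r is a description only. The difference between the responses, sgs1 null minus wild type, passed for 0 of the 36 genes and for 0 features by limma (0.0%). Unadjusted p was under 0.05 for 1 repair gene, SSL2, and for 4.75% of features.

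**Figure D4:**
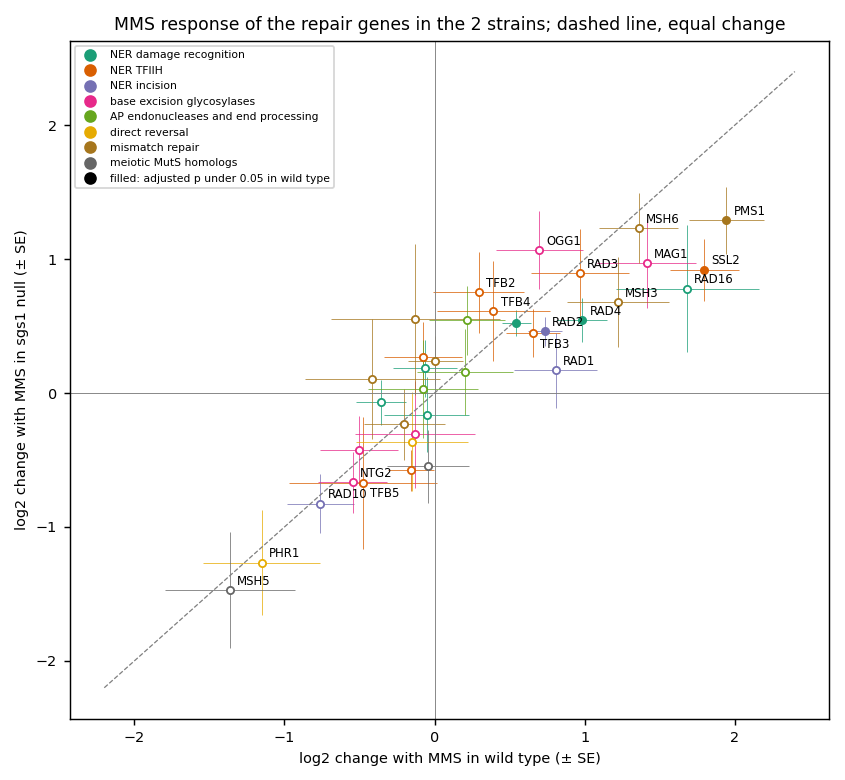
Log2 change with MMS in wild type (horizontal axis) against that in sgs1 null (vertical axis), each ± standard error, for the 36 repair genes coloured by sub-pathway; filled points passed the threshold in wild type and the dashed line marks equal change. PMS1, SSL2 and RAD16 lie under the line on the right, and MSH5, PHR1 and RAD10 near it on the left.

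The differences between the responses with the largest estimates were those of RAD16, SSL2 and MLH2, and all 3 moved by over 1.5 times when 1 array was left out. RAD16 had 1.68 ± 0.48 in wild type and 0.78 ± 0.48 in sgs1 null, a difference of -0.90 ± 0.67 with a 95% interval of -2.63 to 0.83. SSL2 had 1.80 ± 0.23 and 0.92 ± 0.23, a difference of -0.88 ± 0.33 with an interval of -1.71 to -0.039 before adjustment and an adjusted p of 1. MLH2 had -0.13 ± 0.56 and 0.55 ± 0.56, a difference of 0.68 ± 0.80 with an interval of -1.37 to 2.73. Without 1 array RAD16 ranged from -1.42 (second untreated wild-type array left out) to -0.41 (first). SSL2 ranged from -1.21 (first array of untreated sgs1 null left out) to -0.56 (second). MLH2 ranged from 0.12 to 1.25, without the second and the first array of sgs1 null with MMS. With the floor at the 20th percentile RAD16 had -0.57 and MLH2 0.39. The intervals are wide, so a missed threshold does not show that the strains responded alike. For PMS1 the difference was -0.66 ± 0.35 (95% interval -1.56 to 0.25) and for MAG1 -0.44 ± 0.47 (95% interval -1.65 to 0.76).

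Between the strains, limma called 0 of the 36 genes untreated, with MMS or averaged over treatments. The shares of all features called were 0.0262%, 0.0131% and 0.157%. Unadjusted p was under 0.05 for 3 repair genes untreated, SSL2, RAD2 and PMS1, for 0 with MMS, and for 1 averaged, RAD2, beside 10.5%, 6.18% and 11.2% of all features. Untreated, the sgs1 null arrays lay above the wild-type arrays for 9 genes and below them for 3, where 19.3% and 19.6% of all features did so. Averaged over treatments the 4 arrays of each strain overlapped for all 36 genes, while 1.83% of features were higher and 1.4% lower in sgs1 null without overlap.

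**Figure D5:**
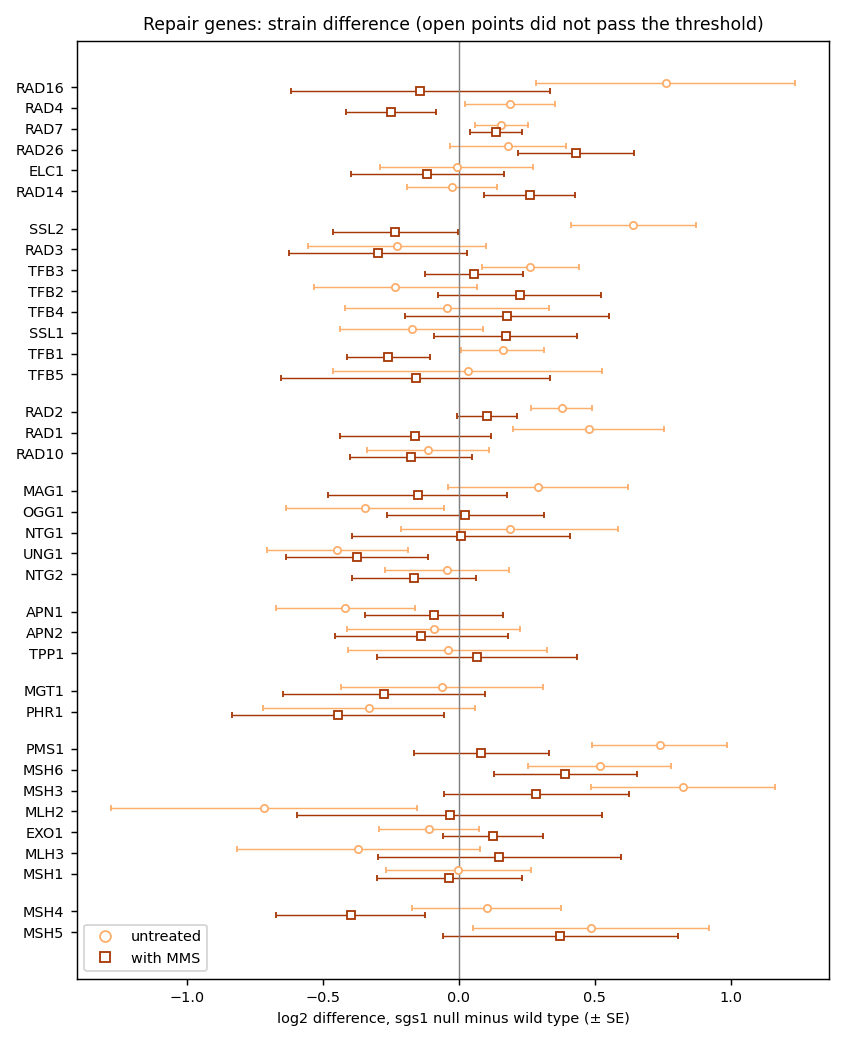
Log2 difference, sgs1 null minus wild type (horizontal axis, ± standard error), for the 36 repair genes untreated (circles) and with MMS (squares). All points are open, since 0 of the 36 genes passed the threshold, and the untreated values run from -0.72 for MLH2 to 0.82 for MSH3.

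Averaged over treatments, the strain differences of single genes did not pass the threshold, though several were larger than their standard errors. MSH3 had 0.55 ± 0.24 (adjusted p = 0.49), with 0.82 ± 0.34 untreated and 0.28 ± 0.34 with MMS. MSH6 had 0.45 ± 0.19 (adjusted p = 0.468), with 0.52 ± 0.26 untreated and 0.39 ± 0.26 with MMS. MSH5 had 0.43 ± 0.31, with a 95% interval of -0.36 to 1.22. Other genes came close to these sizes, among them UNG1 (-0.41 ± 0.18) and PMS1 (0.41 ± 0.18). The remaining MutS homologs MSH4 (-0.15 ± 0.19) and MSH1 (-0.02 ± 0.19) lay below 0. RAD2 had a smaller difference with a smaller error, 0.24 ± 0.079 (adjusted p = 0.382). With the floor at the 20th percentile MSH3 had 0.24 and MSH5 0.24. Leaving out 1 array moved MSH5 between 0.20 without the second array of sgs1 null, untreated or with MMS, and 0.66 without the first of either group. Of the genes called with MMS, PMS1 differed by 0.74 ± 0.25 between the untreated strains (adjusted p = 0.436), SSL2 by 0.64 ± 0.23 and RAD2 by 0.38 ± 0.11. With MMS these 3 differences were 0.082 ± 0.25, -0.23 ± 0.23 and 0.10 ± 0.11. The untreated strain comparison and the MMS response in wild type share the untreated wild-type arrays, so a low reading there moves both values in the same direction.

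Other genes of the same pathways were set beside the 36. There were 19 of them with a probe set of their own. MMS averaged over strains raised 8 (beside 8.78% of all features), lowered 0 (beside 6.78%) and left 11 short of the threshold. Among them were HSM3 (1.88 ± 0.18), a gene linked to mismatch repair that also assists proteasome assembly, and RFA1 (1.47 ± 0.082) and RFA2 (1.23 ± 0.079), of the protein that coats single-stranded DNA in repair and replication. RAD23 (0.89 ± 0.16), the partner of Rad4, rose as well, as did RAD28 (0.63 ± 0.12), KIN28 (0.60 ± 0.12), the kinase of TFIIH, the DNA-binding factor gene ABF1 (0.53 ± 0.10) and the exonuclease gene DIN7 (0.45 ± 0.084). RAD34, a homolog of RAD4, was below the floor on all 8 arrays and has no measured change.

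DIN7 had unlike values in the strains. DIN7 gave 466 and 555 in untreated wild type, 919.7 and 1013 in wild type with MMS, 775 and 718 in untreated sgs1 null and 718 and 752 in sgs1 null with MMS. In wild type it rose by 0.92 ± 0.12 (adjusted p = 0.0247), in sgs1 null the change was -0.021 ± 0.12, and the difference of -0.94 ± 0.17 did not pass (adjusted p = 0.871). Of the regulators listed with these pathways, RPN4, an activator of proteasome and stress genes, rose by 0.94 ± 0.10 (adjusted p = 0.0099) and the checkpoint kinase gene DUN1 by 0.87 ± 0.10 (adjusted p = 0.0109).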

How the data were processed

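The labels place the 8 arrays in 4 groups of 2. The authors deposited linear intensities, 1 per probe set and array. How these were scaled and corrected for background is not given in the sources used here. Of 8363 probe sets, 32 controls and 1 with a missing value were left out. Gene names came from the platform annotation. All 36 repair genes matched 1 probe set each, and systematic names came from RefSeq (assembly R64). Probe sets of a gene were averaged on the log2 scale, which gave 7641 features. Arrays were quantile normalized and values below the 10th percentile (97.1) raised to it. The fit of group means used R 4.3.3 and limma 3.58.1, with eBayes without trend, 4 residual and 0.986 prior degrees of freedom, 7 two-sided contrasts and Benjamini-Hochberg adjustment at 0.05. Simulated data with known changes were used to test the procedure. Their outcome is not given, and no result here rests on it. Changes were planted only in features well above the floor, with noise independent between arrays. The simulation therefore does not cover dim genes or differences shared by arrays of the same mark. Precision is limited by the 2 arrays in each group.

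The members, gene lists, floor and tests were chosen with earlier results of these data known. Values on every array were set to be given for members past the threshold in any contrast, the largest MMS change of each sub-pathway, the textbook damage-inducible genes RAD2, RAD7, MAG1, PHR1 and MSH6, and the 3 largest strain differences and interactions. Values of NTG2, RAD1, RAD3, MGT1, MSH4, DDI1, DIN7, RPH1 and GIS1 were added after they were seen. Alternatives were median centring, the deposited scale, the floor only for values at or below 0, a floor at the 20th percentile, the dimmest 25% of features left out, an intensity trend, each probe set on its own, the rep mark as a replicate block, and each array left out in turn. A search of promoters for motifs was set out but not run, since no promoter sequences were used here.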

Additional observations from a re-analysis of the deposited data

How the results depend on the processing

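The count of repair genes called for MMS averaged over strains stayed within 1.5 times of 12 under the 8 settings that kept all arrays, from 9 to 16, and was 3 to 7 without 1 array. Leaving out the dimmest 25% of features left 30 of the 36 genes tested, and PMS1, MSH3, MLH2 and MSH5 were among those not tested there. In wild type it was 2 with the floor only for values at or below 0, 3 with an intensity trend, and 0 to 1 without 1 array, against 5. In sgs1 null it was 1 with the floor at the 20th percentile and 1 with the replicate block, against 0, and 0 without 1 array. Strain differences and interactions had 0 repair genes called under every setting. MLH2 changed sign, to -0.066 and -0.034 for MMS averaged over strains, without the second array of sgs1 null with MMS and of wild type with MMS, and was at most 0.49 without 1 array. With the rep mark as a replicate block, 16 repair genes were called for MMS averaged over strains, the 12 and RAD16, TFB4, APN1 and NTG2, with 6 in wild type (RAD16 added) and 1 in sgs1 null (PMS1). Differences between second and first arrays correlated at 0.203 to 0.667 for 4 of the 6 pairs of groups, 0.543 for untreated and MMS wild type. They correlated at -0.075 and -0.062 for untreated sgs1 null with either MMS group. Since not every pair exceeded 0.1 and no label says what the mark stands for, the arrays were not treated as paired.

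Over all features, the replicate block gave 935 calls for MMS in wild type (485 in the reported fit), 496 in sgs1 null (192), 1847 averaged over strains (1189) and 2 for the averaged strain difference (12). The floor only for values at or below 0 gave 56 for MMS in sgs1 null, 13 for the untreated strain difference (2) and 30 for the averaged one. For the untreated strain difference the count was 4 on the deposited scale, 6 with the floor at the 20th percentile, 10 without the dimmest 25% and 5 with a trend. With MMS it was 3 with median centring, 2 on the deposited scale, 4 without the dimmest 25% and 2 with a trend (1). The averaged strain difference had 4 on the deposited scale and 25 without the dimmest 25%. The interaction had 1 with the floor at the 20th percentile and 3 with a trend (0). Without 1 array the counts were 0 to 280 for MMS in wild type, 1 to 13 in sgs1 null, 415 to 704 averaged over strains, 1 to 2 for the untreated strain difference, 1 for the other strain differences and 0 for the interaction. The causes were not tested.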
